A study of Mus musculus with 6 samples.

Results

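The genes described here are the 9 CD28 and B7 family members through which T cells receive costimulatory and inhibitory signals: the receptors Icos, Ctla4, Cd28 and Pdcd1, and the ligands Icosl, Cd80, Cd86, Cd274 and Pdcd1lg2. They were taken by gene symbol, as the brightest probe set that the platform annotation assigns to exactly 1 symbol, and all 9 were among the 19935 genes measured. RNA of whole lung from 3 Scnn1b-transgenic (Scnn1b-Tg) samples was compared with that of 3 wild-type samples, all of the C57BL/6 background, and the study was set up to look for candidate genes of emphysema. The transgene carries Scnn1b, whose product is the β chain of the epithelial sodium channel. Its promoter, and the age and sex of the mice, are not stated in the labels. Whether each sample is a different mouse is not stated either. The p-values weigh a difference against the spread among these samples, which may not hold the spread between mice.

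A T cell that meets its antigen needs a further signal from the cell that presents it. CD28 gives this signal when it binds CD80 or CD86, and CTLA-4 takes up the same ligands and holds the response back. ICOS, a CD28 relative that appears on activated T cells and is also carried by group 2 innate lymphoid cells of the lung, binds ICOS ligand. PD-1, the product of Pdcd1, is inhibitory and is bound by PD-L1 (Cd274), which many cell types make, and by PD-L2 (Pdcd1lg2), found mostly on dendritic cells and macrophages. In mouse macrophages PD-L2 is known to be induced by interleukin 4 through STAT6, and PD-L1 by interferon gamma.

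Median RMA intensities of the 6 arrays lay between 47.6 and 48.5 and the lowest values between 18.3 and 18.6. Scnn1b itself averaged 1422 ± 98.3 in Scnn1b-Tg and 139.7 ± 31.9 in wild type (SD, n = 3 each), a log2 fold change of 3.37 ± 0.16 (SE; adjusted p = 0.00241 in limma). It was the only gene called among 19935, at an adjusted p under 0.05 with Benjamini-Hochberg adjustment. In a principal component analysis wild type replicate 2 stood apart on the first component, at 16.3 with the others between -8.91 and 5.46, and Scnn1b-Tg replicate 3 on the second, at -13.3 with the others between -2.47 and 8.03.

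Of the 9 family genes 8 were higher in Scnn1b-Tg lung and 1, Pdcd1, was lower, with a median log2 fold change of 0.17 against 0.0052 over all genes. Of all 19935 genes 10597 were higher and 9338 lower. After median centring 7 of the 9 family genes were higher. The arrays of the genotypes did not overlap for Icos, Icosl, Cd80, Cd86 and Pdcd1lg2, each higher in Scnn1b-Tg, while 6.26% of all genes lay apart in this direction. These differences were small, between 1.12-fold for Cd86 and 1.32-fold for Pdcd1lg2. None of the 9 was called by limma, where 0.00502% of all genes were called, and 5 of 9 had an unadjusted p under 0.05 with a higher value, against 3.96% of all genes. In the other direction 0 of 9 lay wholly below wild type (4.41% of all genes) and 0 were lower at an unadjusted p under 0.05 (2.05%). The count of 5 was 2 without Scnn1b-Tg replicate 2 and 3 without Scnn1b-Tg replicate 1, and stayed at 5 without both arrays that stood apart. With single arrays left out the median of the 9 ran from 0.12 to 0.21, and 6 to 9 of them were higher. By mean intensity 7 of the 9 lay in the lower part of all genes, from the 19.0th percentile for Ctla4 to the 40.6th for Icos, while Cd274 and Icosl were at the 50.5th and 50.8th.

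**Figure D1:**
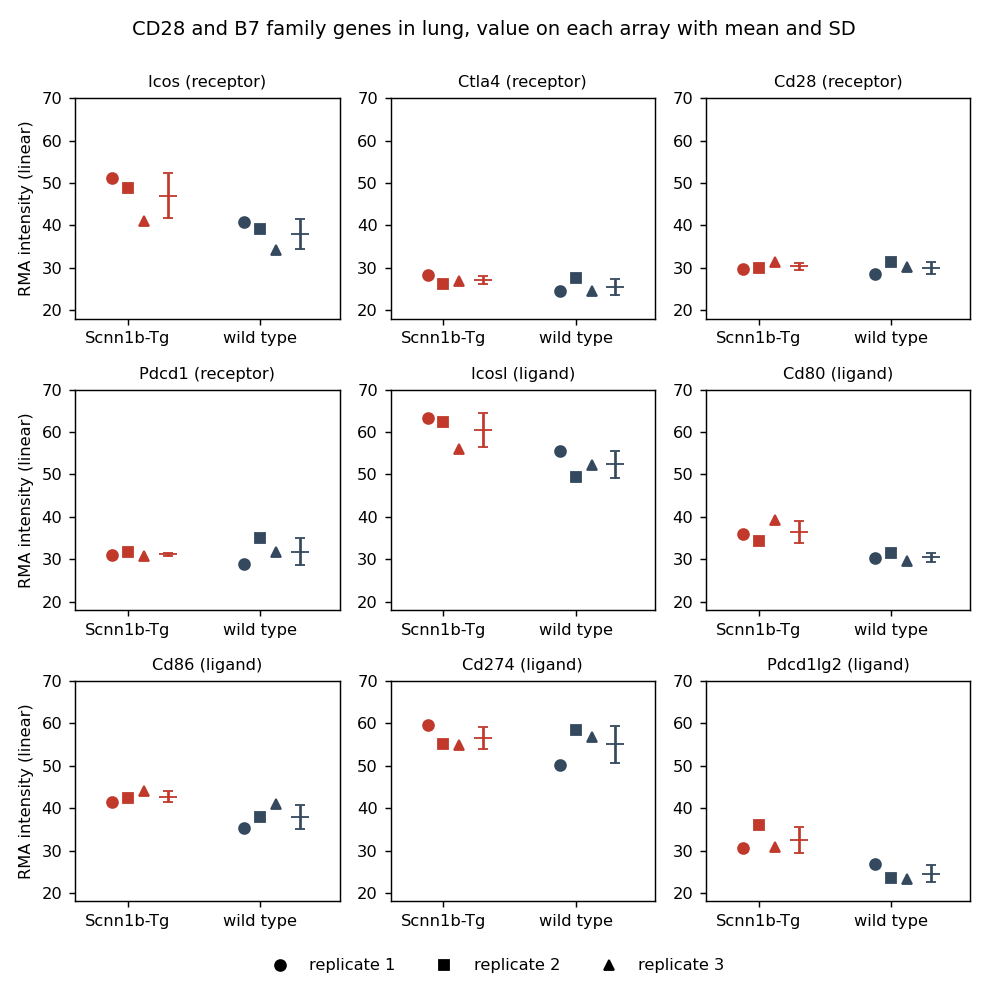
RMA intensity (linear scale) of the 9 genes on each array, Scnn1b-Tg left and wild type right in each panel, with symbols for the replicates and a bar for the mean and SD of 3 arrays. The genotypes lie apart for Icos, Icosl, Cd80, Cd86 and Pdcd1lg2 and overlap for Ctla4, Cd28, Pdcd1 and Cd274. The axis starts just below the lowest values of the arrays, 18.3 to 18.6, not at 0.

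Among the receptors, Icos (probe set 10346799) had an intensity of 51.2, 48.8 and 41.0 on the Scnn1b-Tg arrays, against 40.8, 39.1 and 34.1 on the wild-type arrays. Scnn1b-Tg replicate 3 lay only just above wild type replicate 1, so the groups were separate by a narrow margin. The log2 difference of Icos was 0.30 ± 0.10 (SE; adjusted p = 0.750 in limma), with a 95% interval of 0.063 to 0.55. Leaving out single arrays gave 0.23 to 0.40, and with 16 subtracted from every intensity before log2 the value was 0.49. Since this is RNA of whole lung, more cells that carry Icos and more Icos RNA per cell cannot be told apart.

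Cd28 (probe set 10346783), the receptor of the primary costimulatory signal, had an intensity of 29.7, 29.9 and 31.4 in Scnn1b-Tg lung and 28.5, 31.4 and 30.1 in wild-type lung. The 2 groups covered nearly the same range. For Cd28 the log2 fold change was 0.017 ± 0.053 (SE; adjusted p = 0.995 in limma), with a 95% interval of -0.11 to 0.14, and its sign turned without wild type replicate 1 (-0.020) or Scnn1b-Tg replicate 3 (-0.0076) and after median centring (-0.0083). Ctla4 (probe set 10346790), the inhibitory receptor for the same ligands, gave 28.3, 26.2 and 26.9 in Scnn1b-Tg and 24.4, 27.7 and 24.4 in wild type. Only wild type replicate 2 reached the Scnn1b-Tg range. The difference of Ctla4 was 0.091 ± 0.064 on the log2 scale (adjusted p = 0.921 in limma; 95% interval -0.061 to 0.24), and with 16 subtracted it was 0.24. Single arrays left out moved it between 0.060 (wild type replicate 1 absent) and 0.15 (wild type replicate 2 absent).

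Pdcd1 (probe set 10356866), which encodes the inhibitory receptor PD-1, had 31.0, 31.6 and 30.8 in Scnn1b-Tg lung, against 28.8, 35.0 and 31.6 in wild-type lung. The transgenic values lay inside the wild-type range, in which replicate 2 was highest. The log2 fold change of Pdcd1 was -0.026 ± 0.073 (SE; adjusted p = 0.995 in limma; 95% interval -0.20 to 0.15), and it was 0.045 without wild type replicate 2.

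Cd28, Ctla4 and Icos follow each other on chromosome 1 in the RefSeq gene table, with 0 other protein-coding genes starting between them. Their log2 fold changes were 0.017 for Cd28, 0.091 for Ctla4 and 0.30 for Icos, and 0.038, 0.24 and 0.49 with 16 subtracted from every intensity. Cd28 and Ctla4 were dimmer, at the 26.0th and 19.0th percentile of mean intensity, than Icos at the 40.6th. A trend with position was not tested. To set the receptors against the amount of T cell RNA on the same array, the mean log2 value of 13 T cell marker genes was subtracted from each. The T cell markers themselves had a median log2 fold change of 0.019 and a mean of 0.065. The mean is what this subtraction takes from the difference of each receptor. Of the 13 markers 9 were higher, with 0 called and 2 at an unadjusted p under 0.05. These 2 were Il7r, the interleukin 7 receptor chain (0.41 ± 0.09, SE; adjusted p = 0.398 in limma), and the T cell receptor subunit Cd3g (0.16 ± 0.06, adjusted p = 0.781). The median turned to -0.0069 after median centring and was 0.015 to 0.049 with single arrays left out. With 16 subtracted from every intensity it was 0.061. The summed intensity of the 13 markers was 578 to 596 in Scnn1b-Tg and 534 to 568 in wild type. Trat1, at 20.4 in Scnn1b-Tg and 20.2 in wild type, was close to the lowest values of the arrays.

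Relative to these markers Icos was 0.24 higher on the log2 scale in Scnn1b-Tg, with array values from -0.100 to 0.27 in Scnn1b-Tg and from -0.31 to 0.038 in wild type, each centred on the mean of the 6 arrays. The groups overlapped in this measure. Scnn1b-Tg replicate 3 had the lowest Icos value among the transgenic arrays and the highest mean of T cell markers of all arrays. The same measure gave 0.026 for Ctla4, -0.048 for Cd28 and -0.091 for Pdcd1. An exact two-sided permutation test over the arrays gave p = 0.3 for Icos, 1 for Ctla4, 0.2 for Cd28 and 0.3 for Pdcd1, where 3 arrays against 3 cannot go below 0.1. Adjusted over the 5 within-array differences computed, the p-values of these exact tests were 0.375 for Icos, Cd28 and Pdcd1 and 1 for Ctla4. Leaving out single arrays gave 0.14 to 0.35 for Icos. With 16 subtracted from every intensity the differences were 0.39 for Icos, 0.14 for Ctla4, -0.061 for Cd28 and -0.14 for Pdcd1.

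On the ligand side, Icosl (probe set 10364361), the partner of ICOS, had an intensity of 63.3, 62.4 and 55.9 in Scnn1b-Tg lung and 55.5, 49.3 and 52.3 in wild-type lung. As for its receptor, Scnn1b-Tg replicate 3 was the lowest transgenic array and lay just above the highest wild-type array. Icosl had a log2 fold change of 0.21 ± 0.07 (SE; adjusted p = 0.732 in limma), and 0.17 to 0.27 with single arrays left out. Icos and Icosl thus were both higher on all 3 Scnn1b-Tg arrays than on any wild-type array, by 1.23-fold and 1.16-fold.

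Cd80 (probe set 10435704), a ligand shared by CD28 and CTLA-4, gave 35.9, 34.2 and 39.2 in Scnn1b-Tg, against 30.4, 31.5 and 29.5 in wild type. The groups were clearly apart, with Scnn1b-Tg replicate 3 the highest. The log2 fold change was 0.26 ± 0.06 (SE; adjusted p = 0.455 in limma). A further probe set of Cd80 (10435712) gave 29.8, 31.1 and 33.3 in Scnn1b-Tg and 30.0, 31.6 and 26.6 in wild type. On this probe set the genotypes overlapped and the log2 fold change was 0.098 ± 0.077 (adjusted p = 0.943 in limma over all probe sets), so the probe sets of Cd80 disagree in size.

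Cd86 (probe set 10439312), the other ligand of CD28 and CTLA-4, had 41.5, 42.4 and 44.2 in Scnn1b-Tg lung and 35.2, 37.8 and 40.9 in wild-type lung. The wild-type arrays were more spread than the transgenic arrays, and the gap between the groups was narrow. Cd86 had a log2 fold change of 0.17 ± 0.06 (SE; adjusted p = 0.764 in limma), and 0.12 without wild type replicate 1.

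Pdcd1lg2 (probe set 10462398), which encodes PD-L2, had the largest fold change of the family, with 30.7, 36.1 and 30.7 in Scnn1b-Tg lung and 26.8, 23.6 and 23.2 in wild-type lung. Every transgenic array lay above every wild-type array, Scnn1b-Tg replicate 2 farthest. The log2 fold change was 0.40 ± 0.09 (SE; adjusted p = 0.364 in limma), with a 95% interval of 0.20 to 0.61. With 16 subtracted from every intensity the value was 0.96 (adjusted p = 0.0733). The wild-type signal of Pdcd1lg2 is close to the lowest values of the arrays, where such a constant weighs most. Over the alternatives the adjusted p of Pdcd1lg2 ran from 0.0580, in a fit with robust variance that follows intensity, to 0.846.

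Cd274 (probe set 10462390), which encodes PD-L1, had 59.5, 55.2 and 54.8 in Scnn1b-Tg lung, against 50.2, 58.4 and 56.8 in wild-type lung. The groups overlapped over most of their range. The log2 fold change of Cd274 was 0.039 ± 0.070 (SE; adjusted p = 0.989 in limma; 95% interval -0.13 to 0.20), and it was -0.028 without wild type replicate 1.

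Cd274 and Pdcd1lg2 are neighbours on chromosome 19, with 0 other protein-coding genes starting between them. On each array the log2 difference of Pdcd1lg2 over Cd274, centred on its mean, was 0.028, 0.37 and 0.15 in Scnn1b-Tg and 0.081, -0.32 and -0.30 in wild type. Wild type replicate 1 lay among the transgenic arrays. The difference averaged 0.36 higher in Scnn1b-Tg, with an exact permutation p of 0.2 (two-sided, 0.375 adjusted over the 5 differences, smallest possible 0.1), and ran from 0.27 to 0.50 with single arrays left out. With 16 subtracted from every intensity the difference was 0.90. This contrast was chosen after the values of both genes had been seen.

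The promoters of this pair of neighbours are shown because the groups did not overlap for Pdcd1lg2 and overlapped for Cd274, although a difference between the 2 genes was not shown by the exact test. The windows are from RefSeq (GRCm38.p6) and run from 250 bases before to 50 after the start of a transcript. Both are on the + strand, Pdcd1lg2 at chr19:29410669-29410968 and Cd274 at chr19:29367188-29367487. RefSeq also gives Cd274 a start farther upstream, which this window does not hold. Capitals mark a match to any of 3 motifs searched on both strands.
Pdcd1lg2: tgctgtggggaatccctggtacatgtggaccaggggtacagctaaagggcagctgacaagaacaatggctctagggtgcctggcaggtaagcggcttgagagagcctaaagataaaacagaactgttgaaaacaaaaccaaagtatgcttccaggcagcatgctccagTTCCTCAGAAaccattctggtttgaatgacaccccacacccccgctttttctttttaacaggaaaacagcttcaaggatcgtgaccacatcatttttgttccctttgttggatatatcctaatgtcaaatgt
Cd274: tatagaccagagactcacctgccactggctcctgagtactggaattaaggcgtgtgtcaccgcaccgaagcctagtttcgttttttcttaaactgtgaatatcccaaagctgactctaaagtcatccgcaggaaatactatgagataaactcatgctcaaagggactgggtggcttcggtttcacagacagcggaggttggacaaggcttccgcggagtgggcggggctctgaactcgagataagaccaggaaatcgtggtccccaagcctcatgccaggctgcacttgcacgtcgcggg
The Pdcd1lg2 window held 1 match, TTCCTCAGAA, to the STAT6-type motif (TTC and GAA with any 4 bases between them), from 82 to 73 bases before the start. The Cd274 window held 0 matches to this motif, and 6.95% of 32851 promoter windows of the same length held at least 1. Neither window held the interferon response motif (GAAA and GAAA with 2 bases between, in 3.44% of windows) or the NF-kappaB motif (GGG and TTTCC with 2 between, 1.63%). The windows of Ctla4, Pdcd1, Icosl and Cd80 held 0 matches to the 3 motifs, and 6 of the 9 genes had a window in the table. A match shows only that these letters are present, and no match only that they are not in this window. The motifs were chosen after the values of the genes had been seen.

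**Figure D2:**
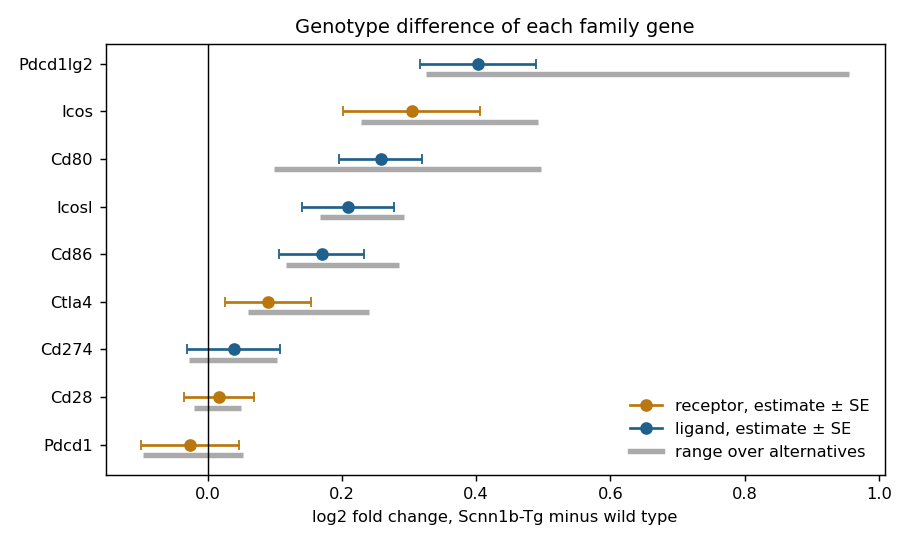
Log2 fold change of Scnn1b-Tg over wild type for each of the 9 genes (point, with the SE of the limma fit), receptors and ligands in different colours, and below each point the range over the processing alternatives. Pdcd1lg2 (0.40) and Icos (0.30) are at the top and Pdcd1 (-0.026) at the bottom, and the ranges of Cd28, Pdcd1 and Cd274 cross 0.

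The B7 ligands are known as genes of antigen-presenting cells, so marker lists of such cells are described beside them. Medians above that of all genes were not particular to these lists. Most others had them too, such as the T cell (0.019) and B cell (0.074) markers. The interferon gamma route, NK and cytotoxic, and epithelial and endothelial lists did not. The mean deviation of the 5 ligands lay between 0.093 and 0.12 on the Scnn1b-Tg arrays and between -0.11 and -0.10 on the wild-type arrays. For the 4 receptors wild type replicate 2 (0.045) lay within the transgenic range of 0.0063 to 0.086. Of 14 dendritic cell markers 12 were higher, with a median log2 fold change of 0.16 (0.11 without wild type replicate 2), 0 called and 5 higher at an unadjusted p under 0.05. Their mean deviation was 0.049 to 0.21 in Scnn1b-Tg and -0.16 to -0.12 in wild type, and their summed intensity 884 to 1008 in Scnn1b-Tg and 743 to 779 in wild type. The largest were Mgl2, a lectin of dendritic cells and macrophages (0.81 ± 0.23, SE; adjusted p = 0.580 in limma), and the chemokine Ccl17 (0.77 ± 0.14, adjusted p = 0.225). Zbtb46, a transcription factor of conventional dendritic cells, gave -0.044 ± 0.087.

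Of 12 macrophage and monocyte markers 10 were higher, with a median of 0.24, 0 called and 7 at an unadjusted p under 0.05. Itgam, the CD11b integrin chain, had the largest value at 0.91 ± 0.15 (SE; adjusted p = 0.205 in limma). It was followed by Adgre1, the F4/80 antigen, at 0.76 ± 0.17 (adjusted p = 0.398). Mertk (0.040 ± 0.069) and Marco (0.012 ± 0.12) differed little, and Fcgr1 (-0.063 ± 0.068) and Lyz2 (-0.12 ± 0.11) were lower. The mean deviation of this list was 0.098 to 0.20 in Scnn1b-Tg and -0.16 to -0.14 in wild type. Its summed intensity, most of it from Lyz2, overlapped at 4307 to 4862 in Scnn1b-Tg and 4256 to 5136 in wild type. All 5 eosinophil markers were higher, with a median of 0.39 (0.20 without Scnn1b-Tg replicate 1), a mean deviation of -0.0050 to 0.50 in Scnn1b-Tg and -0.27 to -0.22 in wild type, and 4 at an unadjusted p under 0.05. Their summed intensity was 252 to 430 in Scnn1b-Tg and 204 to 213 in wild type. The largest were Ccr3, the eotaxin receptor (1.40 ± 0.32, SE; adjusted p = 0.407 in limma), and Prg2, a granule protein (0.41 ± 0.17, adjusted p = 0.822). Of the 5 eosinophil markers 0 were called. Epx gave 0.066 ± 0.053 with overlapping groups, and averaged 26.7 in Scnn1b-Tg and 25.5 in wild type. RMA values do not reach 0 on these arrays, and some markers, such as Il5ra (26.0 in Scnn1b-Tg and 22.4 in wild type), lay close to the lowest values. The part of these markers in the values of the ligands was not tested.

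**Figure D3:**
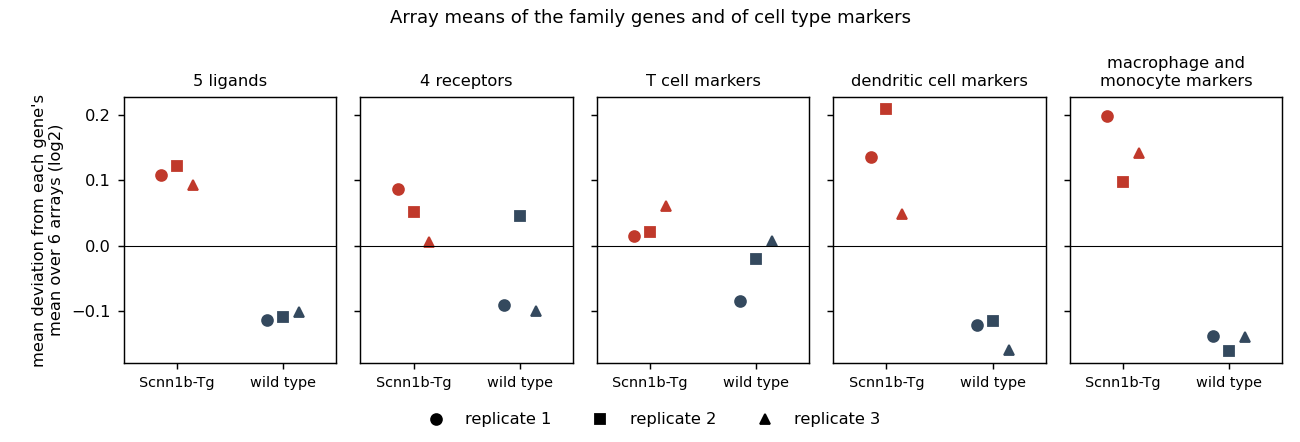
Mean deviation of each array (log2, each gene centred on its mean over 6 arrays) for the 5 ligands, the 4 receptors and the T cell, dendritic cell, and macrophage and monocyte markers, Scnn1b-Tg left and wild type right in each panel. The ligands and all 3 marker lists are separate between the genotypes, the T cell markers by the narrowest margin (0.016 to 0.061 in Scnn1b-Tg and -0.084 to 0.0072 in wild type), and for the receptors wild type replicate 2 (0.045) lies among the transgenic arrays.

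Lists of genes that act beside the family had medians between 0.0024 and 0.073, and none of their genes was called in limma. Of 17 other immunoglobulin-type co-receptors of T cells 9 were higher and 8 lower (median 0.038, and -0.0030 without wild type replicate 1), with 3 higher and 1 lower at an unadjusted p under 0.05. Cd84, a SLAM family receptor also found on myeloid cells, had 0.35 ± 0.10 (SE; adjusted p = 0.581), and Cd200r1, an inhibitory receptor of myeloid cells, 0.26 ± 0.14 (adjusted p = 0.877). Of 12 other B7-like and receptor-partner ligands 10 were higher (median 0.041, and 0.014 to 0.075 with single arrays left out) and 1 passed an unadjusted p under 0.05. That gene was Cd48, the SLAM family partner of CD2 and CD244, at 0.50 ± 0.07 (adjusted p = 0.151), followed by Nectin2 at 0.19 ± 0.09 (adjusted p = 0.862). The 14 TNF family costimulatory genes had a median of 0.037 and 10 were higher, and the median ran from 0.027 to 0.061 with single arrays left out. Tnfrsf9, the receptor 4-1BB, gave 0.20 ± 0.05 (adjusted p = 0.555) and Tnfrsf4, the receptor OX40, 0.11 ± 0.05 (adjusted p = 0.867).

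Of 24 signalling proteins of the T cell receptor and CD28 20 were higher, with a median of 0.073 and 5 at an unadjusted p under 0.05, 0 of them lower. Without wild type replicate 2 the count was 17 and the median 0.033, and without both arrays that stood apart 12 were higher and 12 lower with a median of 0.0022. The adaptor Lcp2 (SLP-76) gave 0.30 ± 0.05 (SE; adjusted p = 0.225 in limma) and the phosphatase Ptpn22 0.28 ± 0.08 (adjusted p = 0.575). Both are also made by myeloid cells. Regulators of the family's RNA decay or surface turnover had a median of 0.020 over 9 genes, with 5 higher, and of 0.012 to 0.046 with single arrays left out. Zc3h12a, the ribonuclease Regnase-1 that degrades Icos RNA among others, gave 0.22 ± 0.05 (adjusted p = 0.416), and Marchf1, the ligase that removes CD86 and MHC class II from the surface, 0.12 ± 0.07 (adjusted p = 0.897). For Rc3h1, or Roquin-1, which also acts on Icos RNA, the value was -0.045 ± 0.062.

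Genes that T cells switch on when activated had a median of 0.032 over 11 genes, and of 0.038 to 0.079 with single arrays left out, the highest without Scnn1b-Tg replicate 1. The largest were Tnfaip3, an inhibitor of NF-kappaB (0.25 ± 0.08, SE; adjusted p = 0.690 in limma), and Nr4a1, an early response gene (0.24 ± 0.24, adjusted p = 0.959), both made by many cell types. The early activation marker Cd69 gave 0.14 ± 0.10, Egr2 0.13 ± 0.07 and Maf 0.12 ± 0.06. The cytokines Il2 (0.032 ± 0.040) and Ifng (-0.021 ± 0.056) and the receptor chain Il2ra (-0.00021 ± 0.041) averaged 22.1, 27.3 and 22.7 in Scnn1b-Tg and 21.6, 27.7 and 22.7 in wild type, close to the lowest values of the arrays. The 8 genes on the interferon gamma route to Cd274 had a median of 0.0024, with 4 higher and 4 lower, and of -0.022 to 0.034 with single arrays left out. The largest were the receptor chain Ifngr2 (0.18 ± 0.07, adjusted p = 0.817) and the kinase Jak1 (0.16 ± 0.09, adjusted p = 0.878), while the transcription factor Irf1 gave -0.073 ± 0.051.

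For the T cell subsets that use these receptors, regulatory T cell markers had a median of 0.056 (0.012 without wild type replicate 3), with 5 of 8 higher. Foxp3, their defining transcription factor, gave 0.082 ± 0.056 (SE; adjusted p = 0.916 in limma), and the largest were the chemokine receptor Ccr8 (0.14 ± 0.05, adjusted p = 0.757) and Ikzf2 (0.14 ± 0.09, adjusted p = 0.916). The 6 follicular helper markers had a median of 0.018 (0.0021 to 0.040 with single arrays left out), led by Cxcr5 (0.15 ± 0.09) and Maf (0.12 ± 0.06), and 3 were higher. The 10 markers of type 2 helper and innate lymphoid cells had a median of 0.073 and 8 were higher, 2 of them at an unadjusted p under 0.05. Their median was 0.046 without Scnn1b-Tg replicate 2, 0.048 without Scnn1b-Tg replicate 1 and 0.13 without Scnn1b-Tg replicate 3. Gata3, their transcription factor, had the largest value at 0.27 ± 0.09 (adjusted p = 0.732), followed by Klrg1 at 0.15 ± 0.09 (adjusted p = 0.897). Ptgdr2 (-0.076 ± 0.053) and Rora (-0.029 ± 0.068) were lower. The cytokines Il4, Il5 and Il13 gave 0.060 ± 0.059, 0.050 ± 0.047 and 0.086 ± 0.077. The median log2 fold changes of the T cell, regulatory and follicular lists were below that of the 9 family genes, which include the ligands. The receptors alone gave 0.30 (Icos), 0.091 (Ctla4), 0.017 (Cd28) and -0.026 (Pdcd1). Differences between the lists and the family genes were not tested.

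**Figure D4:**
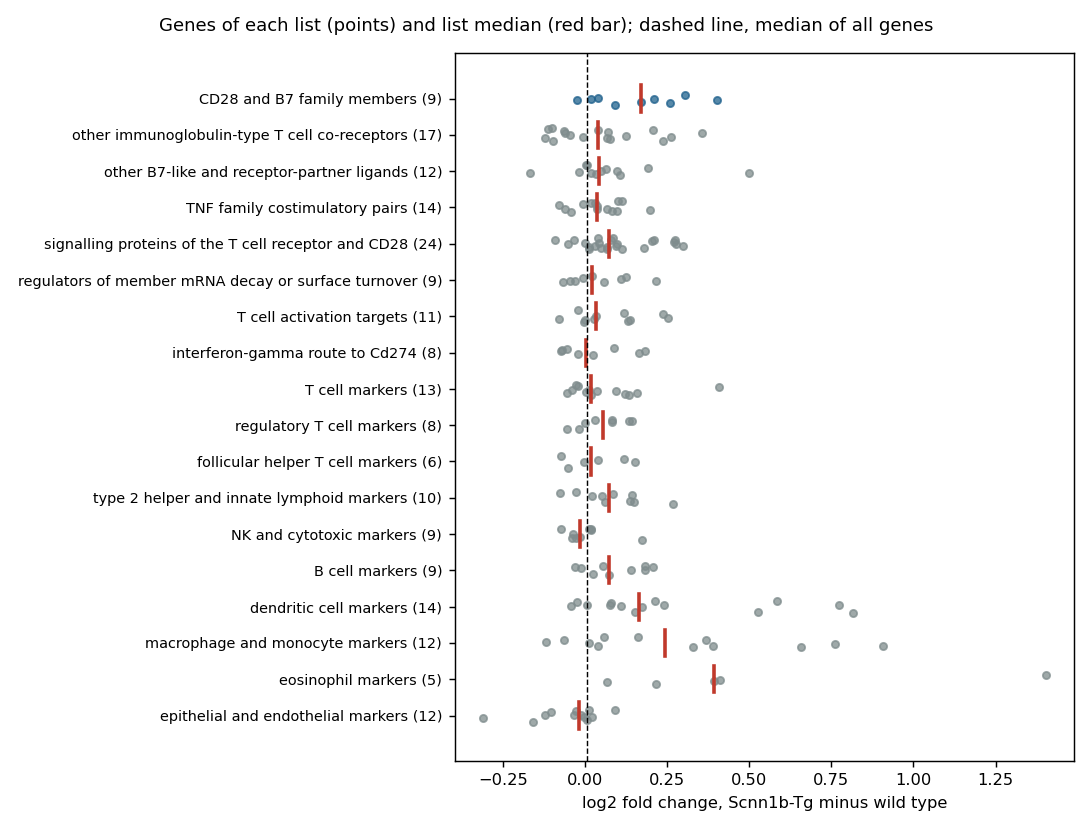
Log2 fold change of Scnn1b-Tg over wild type for every measured gene of the 18 lists (points, number of genes in brackets), with the median of each list as a bar and the median of all genes as a dashed line. The family genes, receptors and ligands together, have a median of 0.17. The medians are 0.019 for the T cell markers, 0.16 for the dendritic cell markers and 0.24 for the macrophage and monocyte markers.

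The genes closest to Icos and to Pdcd1lg2 over the 6 arrays were sought by root-mean-square difference of log2 values after centring. Genes with a predicted-gene, clone or accession-type name were passed over. Closest to Icos among the rest were Olr1 (0.053), a receptor for oxidized lipoprotein, Il17ra (0.054), a chain of the interleukin 17 receptor, and Tnip3 (0.060). Their own log2 fold changes were 0.29, 0.30 and 0.25. Closest to Pdcd1lg2 were Chil1, a chitinase-like protein (0.064), the microRNA gene Mir674 (0.070) and Me1, the cytosolic malic enzyme (0.071), with log2 fold changes of 0.37, 0.39 and 0.44. The measure holds the genotype difference, so fold changes near those of Icos and Pdcd1lg2 follow from how these genes were chosen. None of these 6 genes was called in limma.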

How the data were processed

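RNA of whole mouse lung was extracted with Trizol and labelled for Affymetrix whole-transcript arrays, per the labels' protocols. The deposited values are intensities on a linear scale, 1 per probe set; per the submitters' processing notes RMA was used. Its version, its settings and whether a constant was added are not stated. The linear scale was read from the values.

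Of 28815 probe sets 21780 had exactly 1 symbol, 1605 had several and 5430 were not listed, and 21689 matched RefSeq by Entrez identifier, with 0 symbols updated. For the 998 genes with more probe sets the brightest was taken, which left 19935 genes. The genotype difference of log2 intensity was tested for every gene in limma 3.58.1 (R 4.3.3) with no other term, leaving 4 residual degrees of freedom, or 6.99 once moderated. Two-sided p-values were adjusted by Benjamini-Hochberg over the whole table. The fit was tested on simulated data with known changes. All of these were larger than the differences of the family genes in the reported fit, so changes of that size were not covered. The labels name no batch, so none was tested.

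The members, and the 18 gene lists (202 of 212 entries measured), were chosen with earlier results of these data known, so lists are given as counts and medians without a test. Named were Scnn1b, all 9 members, the 2 genes of each list with the largest absolute log2 fold change (as no list gene was called), and the 3 genes closest to Icos and to Pdcd1lg2, the receptor and the ligand with the smallest p. Further genes (Foxp3, Irf1, Il2, Ifng, Il2ra, Cd69, Egr2, Il5ra, Epx, Trat1, Rc3h1, Zbtb46, Lyz2, Ptgdr2, Rora, Il4, Il5, Il13, Mertk, Marco, Fcgr1) were picked after their values were seen. Whether same-numbered samples belong together is not stated in the labels. Deviations of same-numbered arrays correlated at 0.026 to 0.039, and those of differently numbered arrays at -0.063 to 0.024. These values do not settle whether the samples are paired.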

Additional observations from a re-analysis of the deposited data

How the results depend on the processing

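No family gene was called in limma under any alternative: quantile normalization, median centring, the 6645 dimmest genes left out (4 of 9 members remain tested), the mean over probe sets, every probe set, array weights, a variance trend with robust fitting, a replicate block, 16 subtracted from every intensity, each array left out, or Scnn1b-Tg replicate 3 and wild type replicate 2 left out together. The count of called genes, 1 in the reported fit, was 39 with the dimmest genes left out, 36 with the trend, 23 with 16 subtracted, 6 without both arrays and 0 to 5 with single arrays left out. With the replicate number as a block it was 3. With the block no family gene was called either, and the labels do not say whether samples of the same number belong together. The cause of these shifts was not tested. Of the 9 genes, Icos, Ctla4, Icosl, Cd80, Cd86 and Pdcd1lg2 kept their direction under every alternative in which they were tested. Cd28 turned to -0.0083 after median centring and ran from -0.020 to 0.050 with single arrays left out. Pdcd1 was 0.052 without both arrays and ran from -0.096 to 0.045, and Cd274 was 0.10 without both arrays and ran from -0.028 to 0.082. Subtracting 16 raised the log2 fold change of Pdcd1lg2 to 0.96, of Cd80 to 0.50, of Icos to 0.49, of Cd86 to 0.28 and of Ctla4 to 0.24, and the family median to 0.28, since a constant weighs most on dim signals. There are 3 arrays a genotype.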

Other observations

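Other cell types of the lung were followed with marker lists too, B cells among them, which can carry Icosl, Cd80 and Cd86, and epithelial and endothelial cells, which can make Cd274. Of 9 B cell markers 7 were higher in Scnn1b-Tg, with a median log2 fold change of 0.074 and 0 at an unadjusted p under 0.05, and none was called in limma. Bank1, an adaptor of B cell receptor signalling, gave 0.21 ± 0.13 (SE) and Cd79b, a chain of the B cell receptor, 0.18 ± 0.15. Their mean deviation ran from -0.083 to 0.19 in Scnn1b-Tg and from -0.27 to 0.13 in wild type, lowest on wild type replicate 2, and the median was 0.017 without that array and 0.22 without wild type replicate 3. Of 9 NK and cytotoxic markers 4 were higher (median -0.016, and 0.00018 without wild type replicate 3), led by Klrd1, a chain of the CD94 receptors, at 0.17 ± 0.09, and the granzyme Gzma at -0.075 ± 0.051. Of 12 epithelial and endothelial markers 8 were lower (median -0.019). Without Scnn1b-Tg replicate 1 this was 5 of 12 (median 0.012), and without Scnn1b-Tg replicate 3 it was 12 of 12 (median -0.044). With all arrays 1 marker was at an unadjusted p under 0.05. That gene was the club cell secretoglobin Scgb1a1 at -0.31 ± 0.07 (adjusted p = 0.398 in limma), and the endothelial claudin Cldn5 gave -0.16 ± 0.09.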
